A study of Rattus norvegicus with 2 samples.

Results

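Immediate early response genes were examined in rat liver after a high-fat and a low-fat diet. The 10 genes were Egr1, Fos, Jun, Junb, Atf3, Ier2, Zfp36, Dusp1, Btg2 and Klf6, and a probe set was taken for a gene where that gene was its single symbol in the platform annotation. By this rule 14 of 15923 probe sets were found for 9 of the 10 genes, and Btg2 was matched by none. Liver total RNA was hybridised to 2 oligonucleotide arrays, 1 for the high-fat diet and 1 for the low-fat diet. Both diets were built on AIN93G, a purified rodent diet, and both labels describe 4 weeks old SD rats and 9 weeks of feeding. The fat content of each diet, the sex of the rats, the number of animals behind each RNA, and the hour and manner of liver collection are not stated in the labels used. Each diet had 1 array and no replicate, so every difference is a description of these arrays and carries no p-value.

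Immediate early genes are transcribed within minutes of a stimulus, without the need for new protein. Growth factors, hormones, stress and injury reach them through MAP kinases and other kinases. These act on factors already bound at their promoters, or on the partners of such factors. Among the bound factors are the serum response factor at CArG boxes and CREB at cyclic AMP response elements. Many of their transcripts are short-lived, and several of the products act to end the response. In the liver they are known for their rapid induction after partial hepatectomy and during tissue handling.

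The promoters of 7 members were in RefSeq's table of build GRCr8, those of Egr1, Junb, Ier2, Zfp36, Dusp1, Btg2 and Klf6. The 250 bases before the annotated start are given for Dusp1 (chr10:17184603-17184852, plus strand), Zfp36 (chr1:92799109-92799358, minus strand), Ier2 (chr19:40399123-40399372, plus strand), Junb (chr19:40080876-40081125, plus strand) and Klf6 (chr17:69458479-69458728, minus strand). The first 4 are shown as examples from genes that had a lower signal on the high-fat array, and Klf6 as one whose probe sets lay on both sides. Each is written 5′ to 3′ on the strand of its gene, and capitals mark a CArG box, a cyclic AMP response element (CRE, TGACGTCA), the core of that element (TGACG) or a TATA box (TATAAA), on either strand.
Dusp1: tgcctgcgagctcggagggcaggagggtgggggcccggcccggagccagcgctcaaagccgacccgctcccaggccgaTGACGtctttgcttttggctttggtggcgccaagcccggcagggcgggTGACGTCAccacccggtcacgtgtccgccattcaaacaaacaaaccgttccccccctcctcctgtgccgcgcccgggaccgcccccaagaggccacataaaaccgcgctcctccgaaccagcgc
Zfp36: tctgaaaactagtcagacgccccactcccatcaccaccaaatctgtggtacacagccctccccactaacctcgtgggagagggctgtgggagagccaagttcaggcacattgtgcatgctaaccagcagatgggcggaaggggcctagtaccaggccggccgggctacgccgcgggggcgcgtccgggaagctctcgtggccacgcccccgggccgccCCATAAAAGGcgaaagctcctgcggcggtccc
Ier2: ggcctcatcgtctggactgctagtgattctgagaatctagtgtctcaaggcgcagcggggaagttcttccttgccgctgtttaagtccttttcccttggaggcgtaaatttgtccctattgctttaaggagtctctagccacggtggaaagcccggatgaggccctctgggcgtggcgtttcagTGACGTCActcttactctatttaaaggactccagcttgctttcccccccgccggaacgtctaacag
Junb: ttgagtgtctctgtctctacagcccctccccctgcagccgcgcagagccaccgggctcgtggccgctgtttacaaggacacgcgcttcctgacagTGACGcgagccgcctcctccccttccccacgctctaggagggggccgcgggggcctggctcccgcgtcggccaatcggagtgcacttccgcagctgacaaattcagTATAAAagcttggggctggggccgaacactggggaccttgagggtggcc
Klf6: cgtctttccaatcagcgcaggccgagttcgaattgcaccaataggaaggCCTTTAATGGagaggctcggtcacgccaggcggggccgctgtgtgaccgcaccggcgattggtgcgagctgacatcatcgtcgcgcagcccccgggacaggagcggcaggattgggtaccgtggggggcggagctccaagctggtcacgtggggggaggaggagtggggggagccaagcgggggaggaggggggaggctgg

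Matches to these letters differed between the members. A full CRE lay at positions -124 to -117 from the start of Dusp1, -66 to -59 of Ier2 and -201 to -194 of Btg2, so 3 of the 7 promoters held one, against 1.70% of 27457 promoters of the same length. The core TGACG, which the full element also contains, was in 5 of 7, against 19.0% of all promoters. A CArG box was in 3 of 7, against 1.501%, with a pair in Egr1 at -105 to -96 and -83 to -74, and single ones in Zfp36 at -32 to -23 and Klf6 at -201 to -192. The TATA box letters were in Junb alone of the 7, at -49 to -44, against 13.1% of all promoters. The early growth response motif (GCGNGGGCG) was in 2 of 7, Zfp36 and Btg2, against 4.53%. The ETS motif (CCGGAA) was in 1 of 7, Ier2, against 13.4%, and the AP-1 motif (TGANTCA) was in 0 of 7, against 6.36%. The GC box (GGGCGG), whose letters can overlap the early growth response motif, was in 4 of 7, against 32.4%. A match is a description of letters in this window and does not show that a factor was bound.

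**Figure D1:**
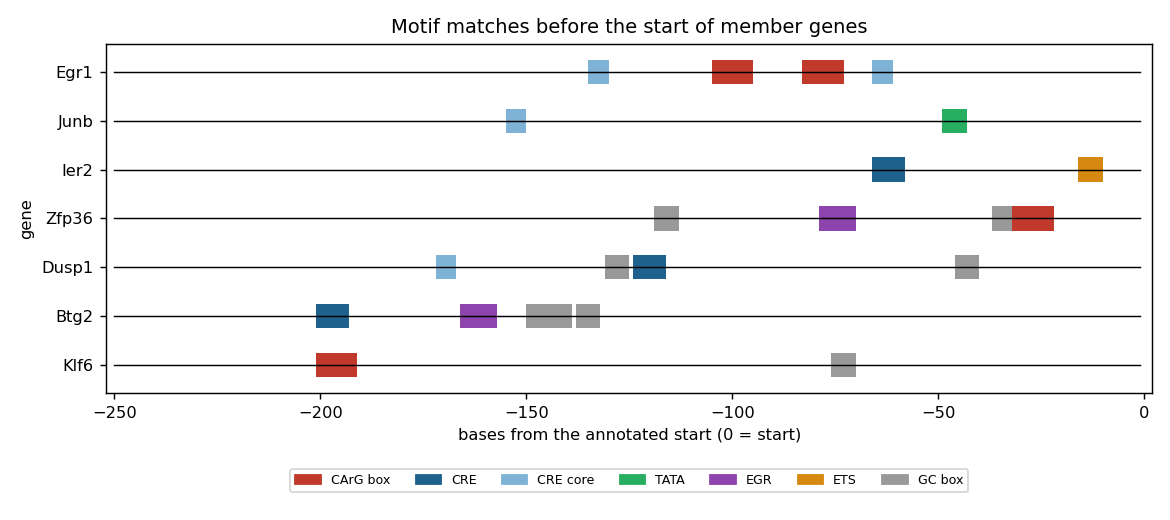
Motif matches in the 250 bases before the annotated start of the 7 member genes in the RefSeq promoter table. The x axis is the distance from the start in bases, each row is a gene, and coloured boxes are matches on either strand. Full CRE matches stand in Ier2, Dusp1 and Btg2, and CArG boxes in Egr1, Zfp36 and Klf6.

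Measured genes whose promoters held these letters lay on both sides. Of 148 measured genes with a full CRE in this window, 71 (48.0%) were lower on the high-fat array, and their median log2 ratio was 0.02. Of 68 with a CArG box, 40 (58.8%) were lower, with a median of -0.08. Both sets include the measured members that held the motif. Over all 5119 measured genes with a promoter in the table the median was 0.00, and 49.9% were lower.

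The arrays were similar in overall signal, and both carried strong hepatocyte transcripts. The median signal of 15866 probe sets without controls was 14 on the high-fat array and 15.7 on the low-fat array, and each median served as a floor for low signal. A probe set was called measured if the average of its log2 signals was at or above the average of the log2 floors, which held for 7864 probe sets and 6012 genes. The log2 ratio, high-fat over low-fat, had a median of -0.117 over the measured probe sets. Ratios below are given after subtraction of this shift, and a gene is called higher or lower by the sign that remains. Hepatocyte markers were measured for 11 of the 11 genes with a probe set. Their summed signal, as deposited, was 42111.7 on the high-fat array and 41881 on the low-fat array. After centring 1 was lower and 10 higher, with a median of 0.14. Without centring 5 were lower, with a median of 0.02. With loess scaling on signal 6 were lower, with a median of -0.02, so their side depended on the scaling. As a sign of RNA quality, the 3′ probe set for the actin control read 2.85 times the 5′ one on the high-fat array and 2.69 times on the low-fat array.

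Of the 7 members that were measured, 6 were lower on the high-fat array and 1 was higher, at the probe set of each gene with the highest mean signal. Their median log2 ratio was -0.52, against 0.00 over the 6012 measured genes, of which 50% were below 0, as the centring sets. The members were chosen with earlier results of these data known, so this contrast is a description only. Without centring the median was -0.64 for the members, and 66.6% of measured genes were below 0. None of the 7 was past 2-fold, against 0.865% of measured genes at least 2-fold lower and 0.848% at least 2-fold higher. Egr1, Zfp36, Ier2 and Junb each had a single measured probe set, which was lower. Only 3 members had more than 1 measured probe set, and of these Dusp1 was lower on both of its own. Jun and Klf6 had probe sets on both sides. Of the 11 measured probe sets, 8 were lower and 3 higher, and their median was -0.24.

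**Figure D2:**
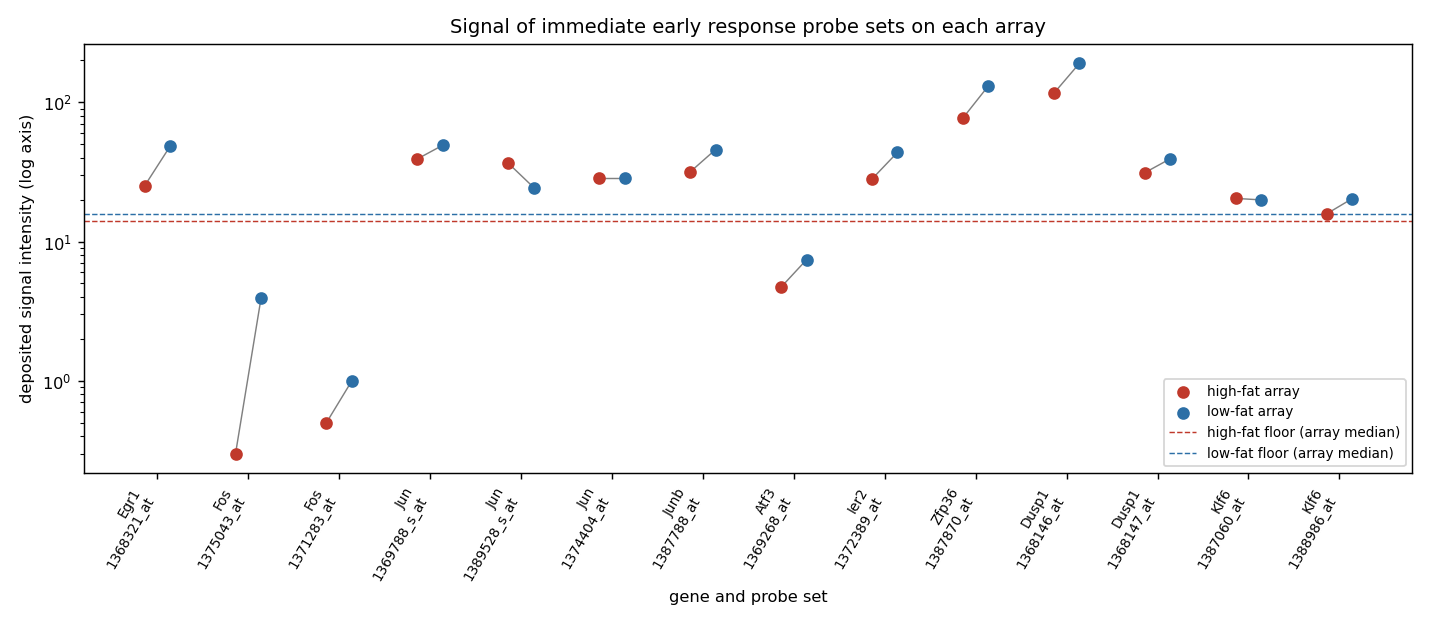
Deposited signal intensity (log axis) of the 14 probe sets on the high-fat array (red, left of each pair) and the low-fat array (blue, right), with the median of each array as a dashed floor. The 2 Fos probe sets and the Atf3 probe set lie below both floors, and the other 11 lie above both.

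Among the zinc-finger transcription factors, Egr1, an early growth response factor that binds GC-rich sites, had the lowest ratio of the measured members. Its probe set 1368321_at had a signal of 25.1 on the high-fat array and 48.3 on the low-fat array. The high-fat signal was 1.79 times its floor and the low-fat signal 3.08 times its floor. The log2 ratio was -0.83, a 1.77-fold lower value. To place a ratio among others of like signal, the measured probe sets were divided by mean signal into 10 equal groups. In the group that held Egr1, 13 of 786 probe sets had a lower ratio. This rank sets one gene against other genes on the same arrays and says nothing of the spread between animals.

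Klf6, a Krüppel-like factor that is activated in injured liver, was close to equal on both arrays. Its probe set 1387060_at read 20.4 on the high-fat array and 19.9 on the low-fat array, a log2 ratio of 0.15. The other, 1388986_at, read 15.8 on the high-fat array and 20.3 on the low-fat array, a log2 ratio of -0.24. All these signals were near the floors, between 1.13 and 1.46 times them. The 2 probe sets differed by 0.40 in log2 ratio. Over the 696 genes that had several measured probe sets, the ratios of the brightest and the next differed with an SD of 0.417, so the sides taken by Klf6 were within the usual spread between probe sets.

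The AP-1 factors are dimers of Jun, Fos and ATF proteins. Junb, whose protein can restrain Jun activity, had a signal of 31.6 on the high-fat array and 45.8 on the low-fat array on 1387788_at. Its log2 ratio was -0.42, and 115 of 786 probe sets of like signal were lower. Jun was represented 3 times and the probe sets pointed different ways. The brightest, 1369788_s_at, had 39.2 on the high-fat array and 49.2 on the low-fat array, a log2 ratio of -0.21. A second, 1389528_s_at, had 36.5 on the high-fat array and 24.4 on the low-fat array, a log2 ratio of 0.70. The third, 1374404_at, had 28.8 on both arrays, which after the shift was 0.12.

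The last pair of Jun probe sets was designed from the same source sequence record, yet their log2 ratios differed. The range over the 3 was 0.909, and 95.3% of the 696 genes with several measured probe sets had a smaller range. The suffix _s_at marks probes that can match more than 1 transcript. When such probe sets were left out, Jun was taken at 0.12, and 5 of 7 members were lower. The sign for Jun therefore depended on which probe set was read.

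Fos, the dimer partner of Jun that gives AP-1 much of its activity, was below the floor throughout. Its probe set 1375043_at read 0.3 on the high-fat array and 3.9 on the low-fat array, and 1371283_at read 0.5 on the high-fat array and 1.0 on the low-fat array. Atf3, a stress-induced repressor that joins Jun proteins, read 4.7 on the high-fat array and 7.4 on the low-fat array on 1369268_at. All 6 values were lower than the median of their array, so no fold is given for either gene. On each of these 3 probe sets the high-fat value was the smaller one before centring. It was also the smaller one for 66.6% of measured genes, but the share among probe sets that were not measured was not computed. Below the floors this order is not read as a direction.

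Ier2, a nuclear protein first known as a serum-induced gene, had a signal of 28.1 on the high-fat array and 43.7 on the low-fat array on 1372389_at. Its log2 ratio was -0.52, a 1.43-fold lower value. In its group of like signal, 72 of 786 probe sets were lower.

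Zfp36 and Dusp1 act to end the response. Zfp36, or tristetraprolin, binds AU-rich elements and sends short-lived messages to decay. Its single probe set 1387870_at had 77.1 on the high-fat array and 131.2 on the low-fat array. Its log2 ratio was -0.65, a 1.57-fold lower value, and 11 of 787 probe sets of like signal were lower. Dusp1 is a phosphatase that inactivates p38, JNK and ERK in the nucleus. Its probe set 1368146_at had 116.1 on the high-fat array and 190.0 on the low-fat array, a log2 ratio of -0.59, with 18 of 787 lower. The second, 1368147_at, had 31.2 on the high-fat array and 39.3 on the low-fat array, a log2 ratio of -0.22, with 236 of 786 lower. Both Dusp1 probe sets came from the same source record and had the same sign, with ratios 0.38 apart. Of the 696 genes with several measured probe sets, 56.9% had the same sign on the brightest and the next. A smaller range than that of Dusp1 was seen in 63.2% of them.

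**Figure D3:**
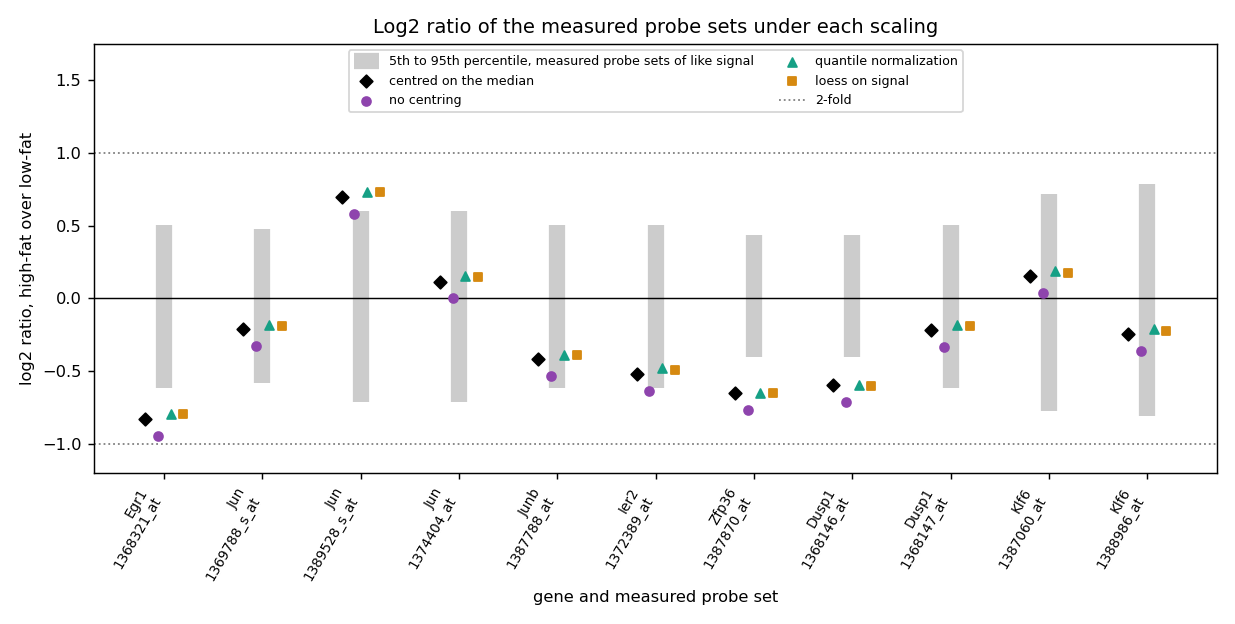
Log2 ratio between the diets (positive, higher on the high-fat array) for the 11 measured probe sets, centred on the median (black) and under 3 other scalings. Grey bars span the 5th to 95th percentile of measured probe sets of like signal. Egr1, Zfp36 and the brighter Dusp1 probe set lie below their bars and 1 Jun probe set lies above its bar.

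Of the 11 measured probe sets, 3 lay below the 5th percentile of their group of like signal and 1 lay above the 95th. The 3 were those of Egr1 and Zfp36 and the brighter one of Dusp1, and the 1 was Jun 1389528_s_at. The groups differed in spread. The robust SD of the log2 ratio was 0.342 in the group of Egr1, Ier2 and Junb, and 0.220 in the group of Zfp36 and the brighter Dusp1 probe set. A ratio of -0.65 for Zfp36 therefore stood further out among its neighbours than a ratio of -0.52 for Ier2.

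**Figure D4:**
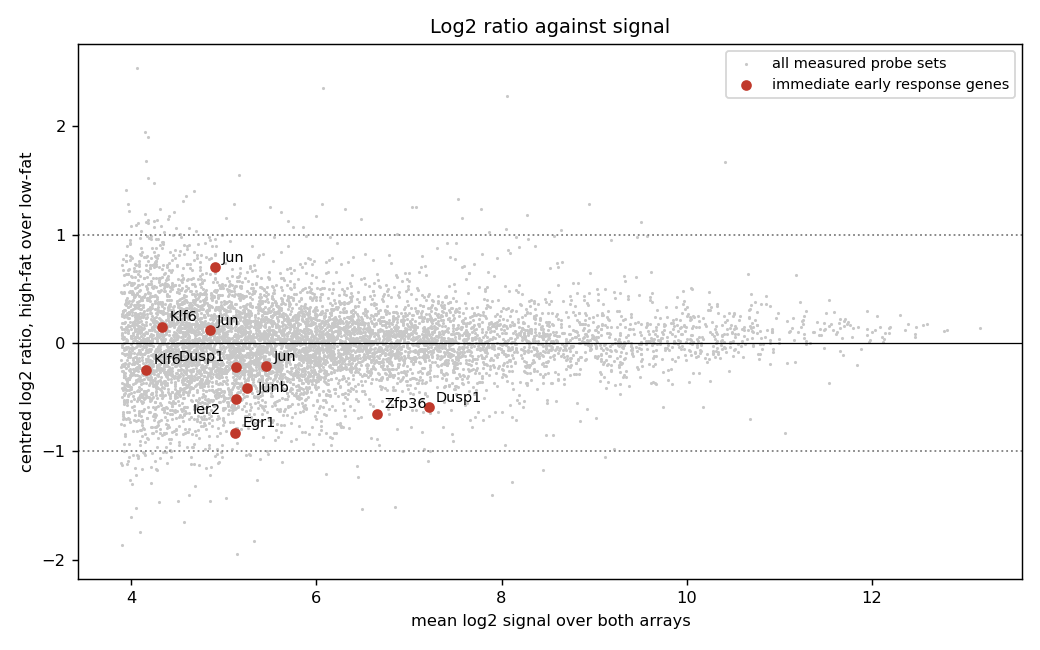
Centred log2 ratio between the diets (positive, higher on the high-fat array) against mean log2 signal for the 7864 measured probe sets (grey), with the 11 of the member genes in red and dotted lines at 2-fold. The red points lie between -0.83 and 0.70, inside the 2-fold lines.

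The signs of these values were kept under the scalings run, except that Jun 1374404_at, higher after centring, was 0 without it. Across median centring, no centring, quantile normalization, loess and centring on 18 hybridization controls, Egr1 ranged from -0.94 to -0.80, Zfp36 from -0.77 to -0.65 and the brighter Dusp1 probe set from -0.71 to -0.59. Ier2 ranged from -0.64 to -0.48 and Junb from -0.54 to -0.39. The higher Klf6 probe set ranged from 0.04 to 0.19.

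A wider list of 60 other immediate early and primary response genes went both ways. Of its genes, 55 had a probe set and 31 were measured, of which 16 were lower and 15 higher, with a median of -0.05. By their measured ratios 4 were past 2-fold lower and 1 higher, against the same 0.865% and 0.848% of all measured genes, but for Sik1 and Ccn2, among the 4, the high-fat signal was below its floor and the bound was under 2-fold. Klf10, a TGF-beta-induced Krüppel-like factor, had 26.1 on the high-fat array and 58.0 on the low-fat array, a log2 ratio of -1.04. Sik1, a kinase induced by cyclic AMP, had 10.4 on the high-fat array, below its floor, and 26.2 on the low-fat array, and was at least 1.73-fold lower. Ccn2, the connective tissue growth factor gene, had 10.5 on the high-fat array, also below its floor, and 23.6 on the low-fat array, and was at least 1.55-fold lower. Cxcl1, a neutrophil chemokine gene named after its value was seen, had 21.2 on the high-fat array and 46.0 on the low-fat array, a log2 ratio of -1.001.

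On the other side of this list stood Tsc22d1, a gene induced by TGF-beta, at 1024.8 on the high-fat array and 513.7 on the low-fat array, a log2 ratio of 1.11. Its value was 0.996 before the shift was taken off. Fosb, Egr2, Egr3, Nr4a1 and Socs3, all well-known early genes chosen here for their place in the pathway after their values were seen, were among the 24 that had a probe set but were not measured. The 24 genes include several with higher high-fat than low-fat values, such as Nr4a1 at 10.8 and 7.0, and all such values were below the floors.

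Of 16 measured dimer partners and relatives of the AP-1 and ATF factors, 7 were lower and 9 higher, none past 2-fold. Their median was 0.03, and -0.08 when no centring was applied. Atf5, a stress-regulated factor of the liver, had 483.0 on the high-fat array and 313.4 on the low-fat array, a log2 ratio of 0.74. Mafg, a small Maf protein gene, had 14.7 on the high-fat array and 25.2 on the low-fat array, a log2 ratio of -0.66. Atf2, a partner of Jun, had 12.1 on the high-fat array, below its floor, and 23.0 on the low-fat array, and was at least 1.52-fold lower. Maf was at 0.44.

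Of 8 measured relatives and co-regulators of Egr1 and Klf6, 5 were lower and 3 higher, with a median of -0.12. Besides Klf10, Klf13, a factor of the same family, had 29.2 on the high-fat array and 48.9 on the low-fat array, a log2 ratio of -0.63. Klf3 was at -0.25, and Nab1, a co-repressor of Egr1, at 0.22. Of 14 measured relatives of Zfp36 and Btg2 and subunits of the deadenylase these proteins recruit, 7 were lower and 7 higher, with a median of -0.01. Btg1, a close relative of Btg2, had 1131.2 on the high-fat array and 876.5 on the low-fat array, a log2 ratio of 0.48. The deadenylase complex genes Cnot4 and Cnot10 were at -0.68 and -0.54, and Elavl1, which stabilises AU-rich messages, was at 0.42.

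Other dual-specificity phosphatases were measured for Dusp5 and Dusp6. Dusp5 had 18.7 on the high-fat array and 18.6 on the low-fat array, a log2 ratio of 0.12. Dusp6, a cytoplasmic ERK phosphatase, had log2 ratios of 0.36, -0.04 and 0.48 on its 3 measured probe sets.

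Genes upstream of the members went both ways. Of 12 measured genes in the chain from growth factor receptors to ERK and the serum response factor, 3 were lower and 9 higher, with a median of 0.14, and 6 were lower without centring, where the median was 0.03. Nras, a small GTPase of this chain, had 40.0 on the high-fat array and 16.4 on the low-fat array, a log2 ratio of 1.40, and its second probe set, with the low-fat value below the floor, was at least 1.71-fold higher. The receptor genes Met and Erbb3 were on opposite sides, Met at least 1.40-fold higher and Erbb3 at least 1.46-fold lower. Elk3, a partner of the serum response factor, was at least 1.29-fold higher. Of 12 measured genes of the stress-activated chain, 7 were lower and 5 higher, with a median of -0.05. Map2k6, a kinase that activates p38, had 17.2 on the high-fat array and 40.8 on the low-fat array, a log2 ratio of -1.13. Gadd45g and Mapkapk2, an activator of this chain and a target of p38, were at 0.62 and 0.58.

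**Figure D5:**
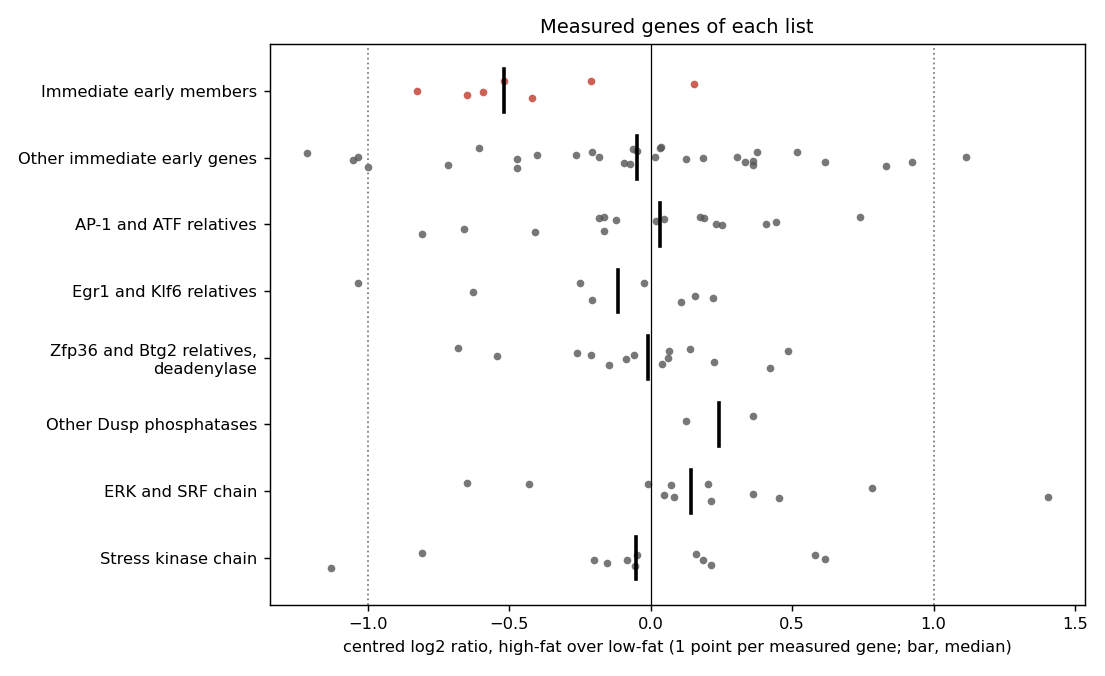
Centred log2 ratio between the diets (positive, higher on the high-fat array) for each measured gene of 8 lists, with 1 point per gene, a bar at the median of the list and dotted lines at 2-fold. The members (red) have a median of -0.52, and the other immediate early genes spread on both sides of 0 with a median of -0.05.

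Markers of other liver cells were read beside these values, because immediate early genes are expressed by many cell types. In bulk RNA, fewer cells of a type and less RNA per cell cannot be told apart. Summed signals are as deposited and still hold the shift between the arrays, while counts, medians and log2 ratios are centred. Of 8 measured Kupffer cell and macrophage markers, 4 were lower and 4 higher, with a median of -0.02. Their summed signals were 1240.3 on the high-fat array and 1423.7 on the low-fat array. Clec4f, which defines Kupffer cells, had 375.0 on the high-fat array and 469.5 on the low-fat array, a log2 ratio of -0.21, and Cd14 was at 0.50. Of 7 endothelial markers with a probe set 4 were measured, 2 lower and 2 higher, with a median of 0.05. Their summed signals were 420.6 on the high-fat array and 450.7 on the low-fat array. Lyve1, a sinusoidal marker, was at -0.39 and Eng at 0.33.

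Of 11 stellate cell and fibroblast markers with a probe set 5 were measured, 4 lower and 1 higher, with a median of -0.28. The higher one was Reln, at 0.22. The 6 that were not measured had values on both sides, which below the floors are not read as a direction. Summed signals of the 5, as deposited, were 343.1 on the high-fat array and 446.2 on the low-fat array. Vim, the vimentin gene, had 52.7 on the high-fat array and 85.8 on the low-fat array, a log2 ratio of -0.59, and Lrat, which stellate cells use to store vitamin A, was at -0.28. Col1a2 was at least 1.97-fold lower on one probe set and at 0.07 on the other. The part of these markers in the values of the members was not tested. Of 8 lymphocyte genes with a probe set 1 was measured, Ccl5, at -0.10. Of 2 neutrophil genes with a probe set 0 were measured. Among bile duct markers 1 of 4 was measured, Epcam, at -0.17. Red cell genes Hbb and Alas2 were at 0.08 and 0.19, and Hbb was at -0.04 without centring.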

How the data were processed

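Per the values, the deposited signal intensity of each probe set is on a linear scale. How the authors corrected background, summarised probes and scaled arrays is not given in the sources used here, and no detection calls were used. Gene names came from the platform annotation: of 15866 probe sets without controls, 12783 had 1 symbol, 312 several and 2771 none. Entrez identifiers matched GRCr8 for 12748, and 0 were renamed.

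Log2 values were taken without a pseudocount, leaving out 4 probe sets listed at 0 on an array. The floor was the median of each array, ratios were centred by their median among the measured probe sets, and the brightest probe set stood for a gene. Where 1 array lay below its floor, the fold is a bound against that floor. All results are descriptions with no test, and 1 array per diet limits their precision. In 11 alternatives the centring was left out or replaced (quantile, loess, hybridization controls), the floor was changed in 3 ways or substituted for lower signals, a pseudocount of 50 was added, a gene was taken at the median of its probe sets, or probe sets that may cross-hybridise were removed.

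The members, the 20 related gene lists, the floor and the alternatives were chosen with earlier results of these data known. Every member was named with all its probe sets, and of each other list up to 4 measured genes with the largest ratio. A few others were named after their values were seen. Promoters were the 250 bases before the start in the RefSeq table of GRCr8, searched on both strands. The calculation of the centred log2 ratios was tested on simulated data with known ratios. The choice of the brightest probe set, the bounds, the list counts, the groups of like signal and the motif search were not part of that test. Python 3.11.15, numpy 2.4.6, pandas 2.3.3 and statsmodels 0.14.6 were used.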

Additional observations from a re-analysis of the deposited data

How the results depend on the processing

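With 6 of 7 measured members lower and a median of -0.52, the members kept a median below 0 under every alternative run, but the number measured depended on the floor. With the floor at the 75th percentile of each array, 2 members were measured, Zfp36 and Dusp1, and both, 2 of 2, were lower, with a median of -0.64. The median was also -0.64 without centring, -0.42 with the median over probe sets and -0.20 with a pseudocount of 50, which by construction shrinks ratios of low signals. Jun, at -0.21, was at 0.12 with the median over its probe sets and also when cross-hybridising probe sets were left out. With the median over probe sets Klf6, at 0.15, was at -0.05, so the 6 of 7 lower members then included Klf6 and not Jun. With no floor, 9 members were measured and 1 was past 2-fold lower, Fos, whose signals were below both floors. In that setting 996 of at most 10411 genes were past 2-fold lower, so this count is not read as a result about the members. The counts of all genes past 2-fold, 52 lower and 51 higher of 6012, depended on the floor, because more or fewer dim probe sets entered. The total of measured genes changed with the floor too, so the counts below are not shares of the same total. They were 318 lower and 244 higher with the floor at the 25th percentile, 10 and 15 at the 75th, and 996 and 836 with no floor. A pseudocount of 50 left 4 lower and 4 higher. With signals set to the floor 34 were lower and 35 higher, and without centring 78 were lower and 33 higher. No paired analysis was possible because each diet had 1 array. Leaving out a replicate was not possible for the same reason. The signals of Klf6, Fos and Atf3 were near or below the floors, which limits what their values can show.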

Other observations

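Stress pathways that share targets with the members were read on the same arrays. Of 14 measured targets of the integrated stress response, to which Atf3 belongs, 5 were lower and 9 higher on the high-fat array, with a median log2 ratio of 0.19 that was 0.08 without centring. Besides Atf5, Fgf21, a liver hormone of fasting and stress, had 28.5 on the high-fat array and 22.1 on the low-fat array, a log2 ratio of 0.48. Aars1, a tRNA synthetase gene, was at 0.36. Nupr1, a stress-induced nuclear protein gene, had 214.6 on the high-fat array and 346.2 on the low-fat array, a log2 ratio of -0.57. Of 9 measured p53 targets, to which Btg2 belongs, 4 were lower and 5 higher, with a median of 0.31. That median was 0.19 when no centring was applied and -0.02 with the floor at the 75th percentile of each array. Mdm2, which limits p53, had 18.1 on the high-fat array and 35.0 on the low-fat array, a log2 ratio of -0.83. Ei24, Phlda3 and Zmat3 were at 0.70, 0.57 and 0.38.

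Genes known to respond to heat, low oxygen and glucocorticoids went both ways. Of 8 measured heat shock genes, 3 were lower and 5 higher, and 5 were lower without centring. Hspb1, a small heat shock protein gene, had 66.9 on the high-fat array and 30.4 on the low-fat array, a log2 ratio of 1.25. Hsph1 was at 0.39, and Hspa1a, the classic inducible chaperone gene, had 27.2 on both arrays. Of 8 measured hypoxia-inducible genes, 5 were lower and 3 higher, with a median of -0.02. Pdk1, Bnip3 and P4ha1 were at -0.37, -0.33 and -0.30, and Ldha was at 0.23. The second probe set of Pdk1 was at 0.09.

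Of 15 measured glucocorticoid-induced genes, 8 were lower and 7 higher, with a median of -0.01, and 12 were lower without centring. Fkbp5, a chaperone of the glucocorticoid receptor, had 56.1 on the high-fat array and 133.6 on the low-fat array, a log2 ratio of -1.14. Mt1, a metallothionein gene, was at least 1.74-fold lower. Sgk1, a serum- and glucocorticoid-regulated kinase gene, had 99.1 on the high-fat array and 56.6 on the low-fat array, a log2 ratio of 0.92. Lcn2 had 31.4 on the high-fat array and 16.9 on the low-fat array, a log2 ratio of 1.01.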
